A study of Mus musculus with 3 samples.

Results

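Axon guidance ligands and receptors were described in B16, a melanoma cell line of the mouse, after stable integration of an empty vector. They are the genes of the deposited table whose symbols name class 3 to 7 semaphorins, plexins, neuropilins, ephrins, Eph receptors, Slits, Robo receptors, netrins and netrin-G proteins, Unc5 receptors, DCC or neogenin. This rule took 71 of the 17285 genes. Of these, 2 came in by name alone: Unc50, a protein of the Golgi membrane, and Unc5cl, a death-domain protein related to the netrin receptors, which leaves 69 guidance ligands and receptors. Counts over the set include both. Epha3, Ephb1 and Unc5d were not analysed here.

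RNA sequencing covered 1 group of 3 samples, called Mock replicates 1, 2 and 3, all of the same line and vector with no treatment named. The labels do not say whether the line is a clone or a pool, or whether each sample was its own culture. The p-values thus cover the spread among the 3 samples, and that spread may be technical. The extraction text of the labels also speaks of organs, while every other label gives the cell line. The series title concerns ST8Sia5, a sialyltransferase, and its attachment of sialic acid chains to itself. The libraries held 9328096, 9456527 and 9438905 counts, so that 1 read was worth 0.106 to 0.107 CPM (counts scaled to library size), and each pair of libraries differed by more than counting error (chi-square per gene 1.62 to 1.99). All 7 melanocytic markers were above 1 CPM, led by Tyrp1 at 12337 CPM. None of 7 neuronal, 8 endothelial and 5 leukocyte markers measured was above 1 CPM, and their summed levels reached at most 1.496, 0.962 and 0.530 CPM in any library. Snap25, Syt1, Stmn2, Nefl and Gad1 of the neurons, Cdh5, Kdr, Tie1 and Emcn of the endothelium, and Csf1r, Adgre1, Tyrobp and Cd3g of leukocytes had no count. Of 6 fibroblast markers, Col1a1 alone was above 1 CPM at 8.29 CPM, the list summed to 6.52 to 9.65 CPM, and no count was found for Thy1, Fap, Dcn and Col3a1. Of the Schwann and glial markers, S100b and Mbp were above 1 CPM at 131 and 8.12 CPM, Egr2 had no call at 0.956 CPM, and Gfap had no count.

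Guidance ligands bind receptors on the growth cone or on a migrating cell and attract, repel or stop it by way of small GTPases and the cytoskeleton. Semaphorins act through plexins, with neuropilins as the ligand-binding subunit for most class 3 members. Ephrins act through Eph receptor tyrosine kinases, in both directions where cells touch. Slits act through Robo receptors, and netrins through DCC, neogenin and Unc5 receptors. The same ligands steer neural crest cells, the embryonic source of melanocytes, and neuropilin-2 is one of the few proteins known to carry polysialic acid.

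Plxnb2, Plxna1, Nrp2, Plxnd1 and Neo1, receptors of the semaphorin and netrin systems, were abundant, while Plxna4 had 1 read and Unc5a had no count. Most secreted ligands were at or near 0, and in most families 1 paralog held the bulk of the transcripts. Each level was tested against 1 CPM with edgeR over all genes with a count, and called above or below at an adjusted p under 0.05. Of 59 genes of the set with a count, 37 were above 1 CPM, Unc50 among them (62.7%, against 74.3% of all genes tested) and 17 were below (28.8%, against 19.7% of all genes tested). The count below was 10 without replicate 1, 8 by DESeq2's Wald test, and 1 among genes with at least 10 counts, settings in which the share below among all genes tested was 12.9%, 10.1% and 3.28%. Dcc, Sema3c, Sema6c, Sema3g and Sema5a had no call. Epha10, Ephb2, Ephb3, Ntn1, Ntn5, Robo2, Sema5b, Slit1, Slit2, Slit3, Unc5a and Unc5cl had no count in any library. These 12, Unc5cl included, are 16.9% of the 71 genes, against 16.6% of the table, and 0 counts over the 3 libraries allow up to 0.106 CPM (3 counts). Such limits cover counting error only. The median guidance gene was at 0.262 RPKM (CPM per kilobase of exon), against 2.86 RPKM for all genes of the table with an exon length. In RNA from a whole culture, fewer expressing cells and less RNA per cell cannot be told apart.

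Variation between the libraries was about as rare in the set as in the table. Of 39 with a mean of at least 10 counts per library, 1 varied by more than counting error at an adjusted p under 0.05 of the Poisson deviance test, against 3.31% of 11000 genes tested. This was Sema3b, a secreted class 3 semaphorin, with 127 CPM in replicate 1, 111 CPM in replicate 2 and 111 CPM in replicate 3 (adjusted p = 0.0264). Replicate 1 was the high library, and the call was lost without it (adjusted p = 0.987) and without replicate 2 (0.0522), but not without replicate 3 (0.0477). Sema6d, a transmembrane semaphorin, had 135, 134 and 135 CPM, a ratio of highest to lowest library of 1.004.

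**Figure D1:**
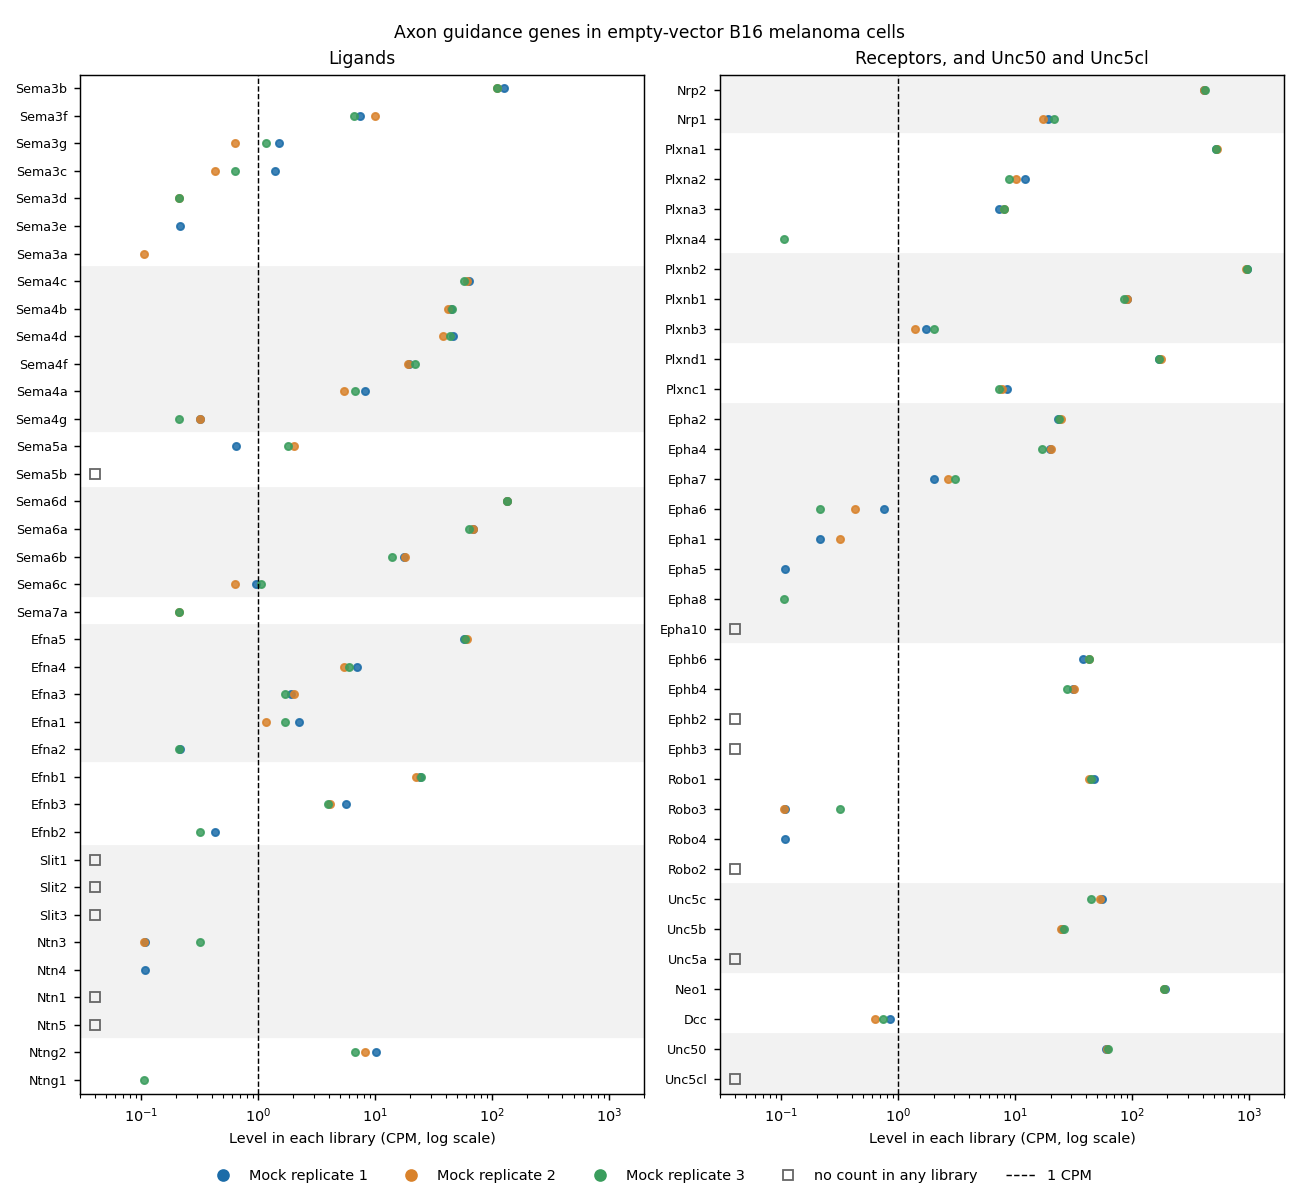
Level of every guidance gene in each of the 3 Mock libraries, in CPM on a log axis, with ligands left and receptors right, shaded by family. Points are libraries, libraries with 0 counts for a gene are not drawn, open squares mark genes with no count in any library, and the dashed line is 1 CPM. Plxnb2, Plxna1 and Nrp2 lie farthest right, and the 3 Slits, Ntn1 and Ntn5 have squares only.

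Among the receptors, 19 of the 27 with a count were above 1 CPM (70.4%), 7 were below (25.9%) and Dcc had no call. Among the ligands, 17 of the 31 with a count were above (54.8%), 10 were below (32.3%) and 4 had no call. Over all genes tested, 74.3% were above and 19.7% were below. The ligands are given by how the protein is released or held, with no test between the kinds. Of 14 secreted ligands, 2 were above 1 CPM, 2 had no call, 5 were below and 5 had no count. Of 15 ligands that span the membrane, 10 were above, and of 8 held by a lipid anchor 5 were above. Of those with a count, the share above was 22.2% for secreted, 71.4% for membrane-spanning and 62.5% for lipid-anchored ligands. Summed over genes, receptors stood at 310 ± 0.815 RPKM and ligands at 114 ± 4.93 RPKM (mean ± SD, n = 3, as for every mean given). Plxnb2, at 123.3 ± 1.92 RPKM, and Plxna1, at 58.0 ± 0.876 RPKM, were the largest parts of the receptor sum per kilobase of merged exon. Nrp2 has 11.842 kb of merged exon but a longest transcript of 6.723 kb, against 9.054 and 9.034 kb for Plxna1. Whether Plxna1 or Nrp2 comes after Plxnb2 thus depends on the length used. The median receptor was at 0.768 RPKM and the median ligand at 0.149 RPKM, against 2.86 RPKM for the table.

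The promoters of 4 guidance genes show that a CpG-rich start was found both at transcribed and at silent members, and likewise a CpG-poor one. Nrp2 (GRCm38.p6 chr1:62703067-62703366, plus strand) and Sema4f (chr6:82939720-82940019, minus strand) were above 1 CPM, Slit3 (chr11:35121206-35121505, plus strand) had no count and Robo4 (chr9:37401722-37402021, plus strand) had 1 read. The sequences are RefSeq's, 250 bases before to 50 after a transcript start, 5′ to 3′ on the gene's strand, with each CpG in capitals, and the 4 genes were chosen after their values were seen.
Nrp2: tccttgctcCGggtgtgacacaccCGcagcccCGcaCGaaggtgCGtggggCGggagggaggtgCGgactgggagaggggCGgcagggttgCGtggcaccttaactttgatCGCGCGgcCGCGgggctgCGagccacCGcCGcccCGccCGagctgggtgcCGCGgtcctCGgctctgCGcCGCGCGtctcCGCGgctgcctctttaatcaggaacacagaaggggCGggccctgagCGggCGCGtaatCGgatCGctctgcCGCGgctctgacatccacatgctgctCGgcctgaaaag
Sema4f: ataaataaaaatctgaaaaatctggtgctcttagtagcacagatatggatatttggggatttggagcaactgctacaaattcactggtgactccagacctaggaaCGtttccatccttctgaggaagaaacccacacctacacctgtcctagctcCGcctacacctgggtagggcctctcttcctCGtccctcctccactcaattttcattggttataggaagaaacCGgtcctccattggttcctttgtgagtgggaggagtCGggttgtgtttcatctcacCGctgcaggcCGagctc
Slit3: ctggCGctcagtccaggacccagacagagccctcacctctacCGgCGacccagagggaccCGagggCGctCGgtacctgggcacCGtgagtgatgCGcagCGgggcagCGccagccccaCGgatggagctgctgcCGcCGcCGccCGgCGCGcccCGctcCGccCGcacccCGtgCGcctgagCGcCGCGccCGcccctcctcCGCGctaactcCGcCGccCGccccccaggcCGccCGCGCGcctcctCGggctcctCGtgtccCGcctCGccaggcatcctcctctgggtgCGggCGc
Robo4: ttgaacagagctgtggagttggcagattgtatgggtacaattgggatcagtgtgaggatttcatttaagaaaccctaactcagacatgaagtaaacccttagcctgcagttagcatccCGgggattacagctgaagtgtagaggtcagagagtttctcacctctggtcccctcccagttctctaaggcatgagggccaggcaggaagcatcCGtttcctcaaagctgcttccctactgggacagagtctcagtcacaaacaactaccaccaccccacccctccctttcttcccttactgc

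Nrp2 has 37 CpG in these 300 bases and a ratio of observed to expected CpG of 0.992, while Sema4f has 7 and a ratio of 0.397. Slit3 has 41 and a ratio of 0.928, while Robo4 has 2 and a ratio of 0.106. Over the 62 of 71 genes of the set with a RefSeq window, Unc50 and Unc5cl included, the ratio was similar at both levels: its median was 0.683 over 32 genes above 1 CPM and 0.685 over 26 genes below 1 CPM or with no count. In the whole table it was 0.793 over 8563 genes above 1 CPM and 0.345 over 4125 genes below or with no count. A ratio over 0.6 was found in 62.5% of guidance genes above 1 CPM and 61.5% of those below or with no count, and in 77.6% and 26.4% of the genes of the table. These shares are a description without a test. The first listed window was used for the 12 genes with several. For 6 genes the transcript start of the window lies over 1000 bases from the start of the gene, on its strand, in GENCODE.

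**Figure D2:**
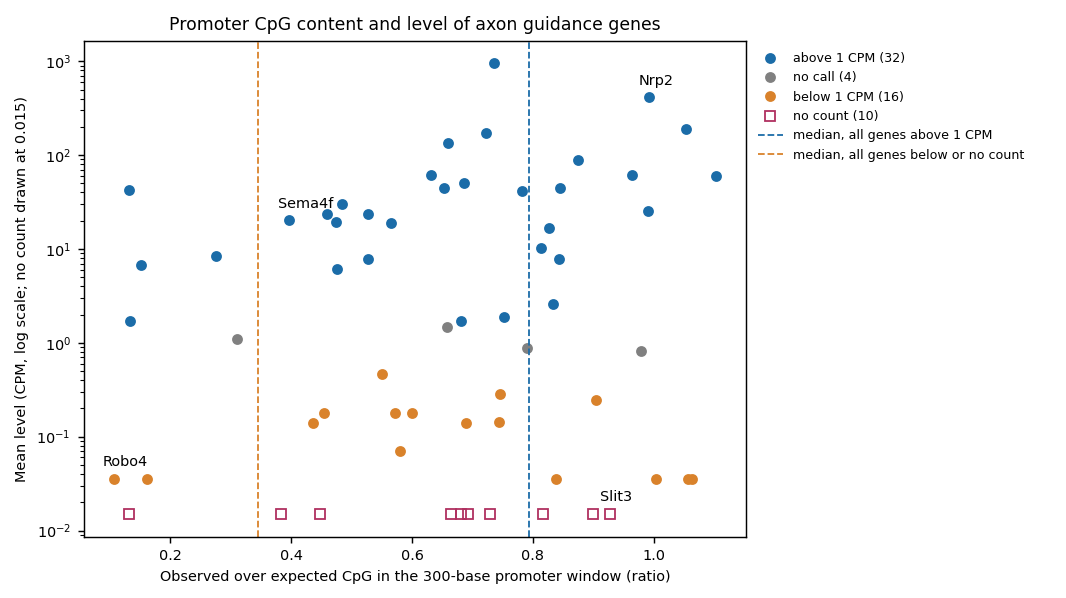
Observed over expected CpG in the 300-base promoter window (x axis) against mean level in CPM on a log axis (y axis) for 62 guidance genes, coloured by call. Genes with no count are drawn at a fixed low value, and the dashed lines are the medians of all genes of the table, 0.793 above 1 CPM and 0.345 below 1 CPM or with no count. Guidance genes above 1 CPM, and also those below or with no count, lie on either side of both lines.

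Of short motifs searched on both strands of the same windows, the E-box CACGTG was in 4 of 62 guidance promoters (6.45%, against 9.13% of the genes of the table and 7.24% of all promoters of that length). CATGTG, a letter string bound by melanocyte factors of the MiT family, was in 5 (8.06%, against 9.86% and 14.1%), and the TATA-box letters TATAAA in 2 (3.23%, against 8.71% and 14.2%). None of these 3 strings can overlap another of them. A match is a string of letters in the window and no more.

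Of the neuropilins, co-receptors for class 3 semaphorins and vascular endothelial growth factors, Nrp2 was the main transcript. Nrp2 (chromosome 1, 62703285 to 62818695, plus strand) had 409, 407 and 418 CPM, and Nrp1 had 18.9, 17.4 and 21.4 CPM in replicates 1, 2 and 3. Both were above 1 CPM, with edgeR adjusted p of 3.39e-16 for Nrp2 and 2.02e-10 for Nrp1. Per kilobase the libraries of the 2 genes did not overlap. On that scale of exon Nrp2 was 17.7-fold above Nrp1 and made up 94.65 ± 0.47% of the pair.

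Plexins, the transmembrane receptors that carry a GTPase-activating domain inside the cell, included the most abundant genes of the whole set. Of 9 plexins 8 were above 1 CPM (88.9%, against 74.3% of all genes tested) and Plxna4, with 1 read, was below. Plxnb2 (chromosome 15, 89155549 to 89180788, minus strand), a receptor for class 4 semaphorins, had 966, 937 and 952 CPM, rank 84 of the table. Plxna1 (chromosome 6, 89316314 to 89362620, minus strand), a partner of neuropilins and a receptor for Sema6d, had 518, 533 and 524 CPM, rank 237. Plxnd1 (chromosome 6, 115954811 to 115995005, minus strand), the direct receptor for Sema3e, had 168, 175 and 169.7 CPM. Per kilobase, the leading gene of each plexin class stood above its paralogs in every library. Plxnb1, the receptor for Sema4d, had 89.5, 90.4 and 85.8 CPM, and Plxnb3 averaged 1.70 ± 0.319 CPM. Plxna2 had 12.2, 10.1 and 8.80 CPM, and Plxna3 averaged 7.72 ± 0.397 CPM. Per kilobase, Plxnb2 was 13.4-fold above Plxnb1 and Plxna1 was 59.2-fold above Plxna3. Plxnc1, the receptor for Sema7a, had 8.55, 7.63 and 7.21 CPM, and Plxnd1 was 25.1-fold above it per kilobase.

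The class 3 semaphorins, which are secreted, were represented mainly by 1 gene. Sema3b (chromosome 9, 107597674 to 107609229, minus strand), whose levels by library are given above, stood at 24.4 ± 2.0 RPKM and made up 92.7 ± 1.08% of the class per kilobase. Sema3f, a ligand of Nrp2, had 7.37, 10.1 and 6.58 CPM, and was 16.1-fold below Sema3b per kilobase. Sema3c and Sema3g had no call, with 13, 4 and 6 reads of Sema3c and 14, 6 and 11 reads of Sema3g. Sema3a, the classical ligand of Nrp1, had 1 read in all, Sema3e had 2 and Sema3d had 4, and these 3 genes were below 1 CPM.

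The class 4 semaphorins, which span the membrane and bind B plexins, were shared out among several genes. Of 6 genes 5 were above 1 CPM (83.3%, against 74.3% of all genes tested). Sema4g, with 3, 3 and 2 reads, was below (edgeR adjusted p = 0.00511). Sema4c, a ligand of Plxnb2, had 64.0, 61.3 and 57.1 CPM. Sema4b had 44.2, 42.4 and 45.6 CPM. No gene of this class held most of its transcripts: per kilobase Sema4c made up 41.8 ± 2.21%, Sema4b 24.7 ± 0.966%, Sema4d 17.5 ± 1.17% and Sema4f 12.04 ± 0.963%. Sema4d, the ligand of Plxnb1, averaged 42.6 ± 4.47 CPM and Sema4a, which also acts on immune cells, 6.74 ± 1.36 CPM.

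The class 6 semaphorins, transmembrane ligands of A plexins, were likewise shared. Sema6d, with the levels given above, made up 51.5 ± 1.84% of the class per kilobase. Sema6a had 68.8, 68.9 and 64.1 CPM and made up 30.99 ± 0.228%. Sema6b averaged 16.6 ± 2.24 CPM and 16.9 ± 1.75% of the class, and Sema6c had no call with 9, 6 and 10 reads. Of class 5, whose proteins carry thrombospondin repeats, Sema5a had 6, 19 and 17 reads. The first library of Sema5a lay below 1 CPM and the others above it, and the gene had no call (edgeR adjusted p = 0.126, or 0.0183 without replicate 1). Sema7a, the lipid-anchored ligand of Plxnc1, had 0, 2 and 2 reads and was below 1 CPM (adjusted p = 0.00414).

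**Figure D3:**
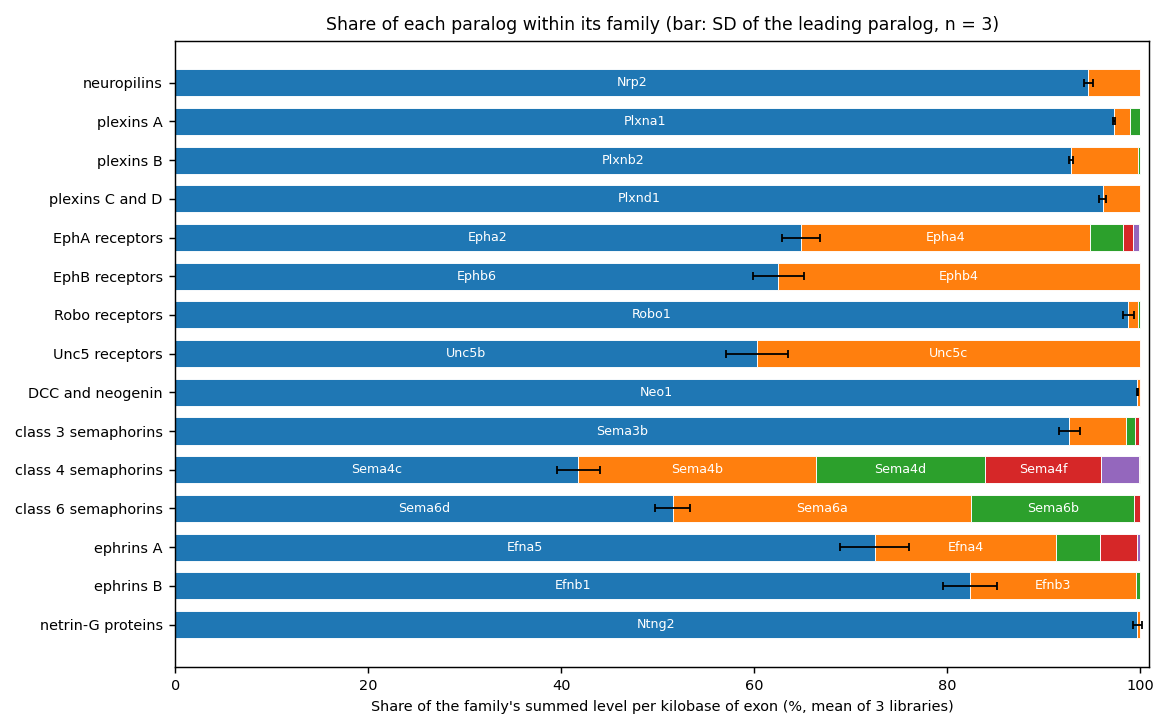
Share of each paralog in the summed level of its family per kilobase of exon, in percent, mean of the 3 libraries; the error bar is the SD of the leading paralog. Nrp2, Plxna1, Plxnb2, Plxnd1, Neo1, Robo1, Ntng2 and Sema3b each hold at least 92.7% of their family, while class 4 and class 6 semaphorins, Eph receptors and Unc5 receptors are shared.

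Ephrins of both classes were present. The A ephrins are held to the membrane by a lipid anchor, and 4 of 5 were above 1 CPM (80.0%, against 74.3% of all genes tested). Efna5 had 57.8, 61.5 and 59.0 CPM and Efna4 had 7.05, 5.41 and 5.94 CPM. Per kilobase the libraries of these 2 genes did not overlap, and Efna5 made up 72.5 ± 3.60% of the A class. Efna3 averaged 1.88 ± 0.163 CPM and Efna1, the main ligand of Epha2, 1.70 ± 0.539 CPM, with per kilobase levels that overlapped between the 2 genes. The call of Efna1 (edgeR adjusted p = 0.0187) was lost without replicate 1 (0.144) and without replicate 3 (0.111). Efna2 had 4 reads and was below 1 CPM, a call lost without replicate 1 (0.0588). Of the B ephrins, which span the membrane and can signal themselves, Efnb1 had 24.4, 22.2 and 24.5 CPM and made up 82.4 ± 2.79% of the class per kilobase. Efnb3 had 5.66, 4.13 and 3.92 CPM. Efnb2, the ligand of Ephb4 in vessels, had 4, 0 and 3 reads and was below 1 CPM (edgeR adjusted p = 0.0166). This call was lost without replicate 1 (0.098), without replicate 3 (0.111) and by DESeq2's Wald test (0.051).

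Eph receptors were led by 2 genes in each class. Epha2, known as a receptor raised in many tumours, had 23.1, 24.6 and 23.8 CPM, and Epha4, which binds ephrins of both classes, had 19.8, 20.2 and 17.1 CPM. Per kilobase Epha2 made up 64.8 ± 1.99% and Epha4 30.0 ± 1.82% of the A receptors analysed. Epha7 averaged 2.59 ± 0.526 CPM, and it was the third and last of these A receptors above 1 CPM. Epha6, with 7, 4 and 2 reads, was below 1 CPM at an edgeR adjusted p of 0.0418. This call was lost without replicate 2 (0.157), without replicate 3 (0.169) and by DESeq2's Wald test (0.119). Epha1 was below with 5 reads in all, a call lost without replicate 1 (0.098). Epha5 and Epha8 were below with 1 read each, and like the other genes of the set with 1 read in all they had no call by DESeq2's Wald test (adjusted p = 0.0695). Of the B receptors, Ephb6, whose kinase domain is inactive, had 38.1, 42.3 and 42.5 CPM, and Ephb4 had 30.98, 32.0 and 27.7 CPM. Per kilobase Ephb6 stood above Ephb4 in every library and made up 62.5 ± 2.64% of the B receptors analysed, while Ephb2 and Ephb3 had no count.

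Of the Slit and Robo system only receptor transcripts were found. Robo1 had 46.7, 42.3 and 44.1 CPM and made up 98.8 ± 0.557% of the Robo family per kilobase. Robo3, which acts in commissural axons, had 1, 1 and 3 reads, and Robo4, the endothelial member, had 1 read in all. Both were below 1 CPM, Robo2 had no count, and the 3 Slits, large secreted ligands, had no count either. No exon of a Slit overlaps an exon of another annotated gene.

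In the netrin system too, some receptors were transcribed and the secreted ligands were at or near 0. Neo1 (chromosome 9, 58874687 to 59036441, minus strand), neogenin, a receptor for netrins and for repulsive guidance molecules, had 191, 186 and 186 CPM. Dcc, the classical attractive netrin receptor, had 8, 6 and 7 reads and no call (edgeR adjusted p = 0.229), and Neo1 made up 99.7 ± 0.0352% of the pair per kilobase. Unc5c had 54.9, 53.2 and 44.5 CPM and Unc5b had 25.3, 24.5 and 25.9 CPM; both are repulsive netrin receptors. Per kilobase of merged exon Unc5b made up 60.3 ± 3.18% and Unc5c 39.7 ± 3.18% of the Unc5 receptors analysed. This order turned when the longest transcript set the length (45.0% Unc5b) and without division by length (33.3%). Of the secreted netrins, Ntn1 and Ntn5 had no count, Ntn3 had 1, 1 and 3 reads and Ntn4, a basement membrane protein, had 1 read in all. The netrin-G proteins are lipid-anchored relatives that do not bind DCC. Ntng2 had 10.2, 8.16 and 6.79 CPM, and Ntng1 had 1 read. Of the genes taken in by name, Unc50 had 60.1, 61.2 and 62.5 CPM and Unc5cl had no count.

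Ligand and receptor levels were set side by side by system, summed per kilobase. Plxnd1, at 23.4 ± 0.466 RPKM, was in none of these sums, and class 3 semaphorins were set beside neuropilins only. Class 3 semaphorins stood at 26.3 ± 2.05 RPKM and neuropilins at 36.7 ± 0.695 RPKM. Class 4 semaphorins stood at 31.7 ± 1.31 RPKM and B plexins at 133 ± 1.90 RPKM, and class 5 and 6 semaphorins at 24.8 ± 0.826 RPKM and A plexins at 59.6 ± 0.866 RPKM. The A ephrins, at 20.3 ± 0.453 RPKM, were the only ligand group above the receptors analysed, here the A class Eph receptors without Epha3 at 7.86 ± 0.318 RPKM. The B ephrins stood at 8.33 ± 0.592 RPKM and the B class Eph receptors, without Ephb1, at 17.4 ± 0.671 RPKM. Netrins summed to 0.0442 ± 0.0213 RPKM, against 28.3 ± 0.555 RPKM for Dcc, Neo1 and the Unc5 receptors without Unc5d. Slits summed to 0 and Robo receptors to 2.72 ± 0.143 RPKM. In all 8 systems the ligand and receptor sums did not overlap between libraries.

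**Figure D4:**
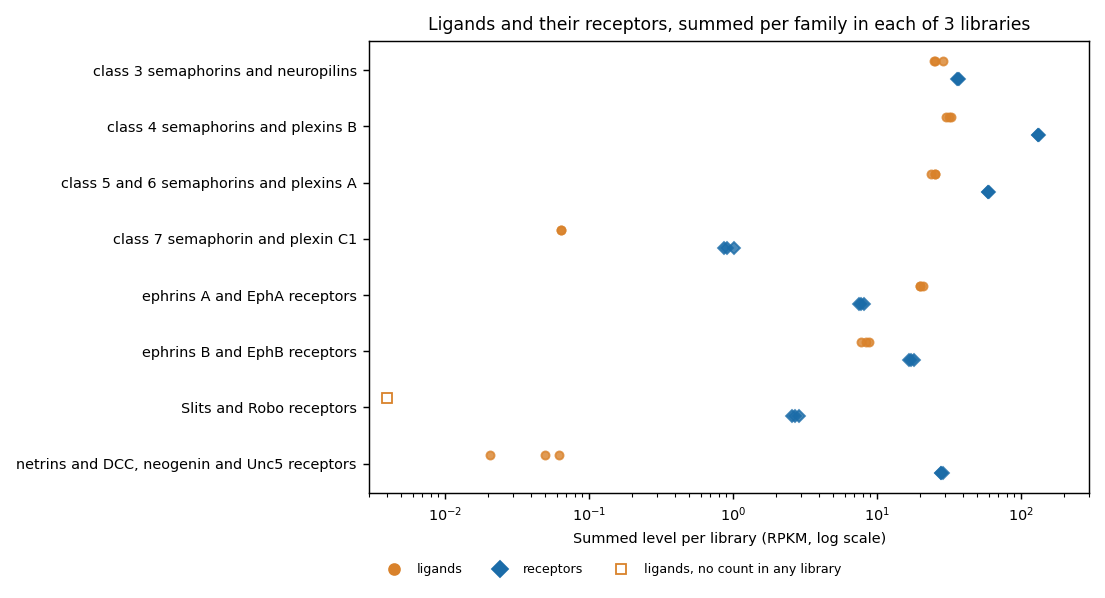
Summed level of the ligands (circles) and of the receptors (diamonds) of each of 8 guidance systems in each Mock library, in RPKM on a log axis. An open square marks the Slits, which had no count, and the library with 0 counts of Sema7a is not drawn. The A ephrins lie right of their receptors, and netrins lie far left of theirs.

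Ordered per kilobase, the 37 genes above 1 CPM ran from Plxnb2 at 123.3 ± 1.92 RPKM to Epha7 at 0.262 ± 0.0532 RPKM. Of the 36 pairs of neighbours in this order, 14 did not overlap in their library values and 22 did. Plxnb2, Plxna1 (58.0 ± 0.876 RPKM), Unc50 (38.8 ± 0.737 RPKM) and Nrp2 (34.7 ± 0.489 RPKM) were each separated from the next gene. Sema3b (24.4 ± 2.0 RPKM) and Plxnd1 (23.4 ± 0.466 RPKM) overlapped each other, as did Sema4c (13.2 ± 0.761 RPKM) and Sema6d (12.7 ± 0.0286 RPKM). From Robo1 (2.69 ± 0.134 RPKM) down to Plxna2 (0.603 ± 0.0993 RPKM) every gene overlapped its neighbour. This order rests on merged exon lengths. Merged exon and longest transcript measure 11.842 and 6.723 kb for Nrp2, 9.054 and 9.034 kb for Plxna1, and 1.579 and 1.414 kb for Unc50. They measure 10.559 and 6.444 kb for Sema6d and 4.593 and 3.892 kb for Sema4c. The place of Nrp2 against Plxna1 and Unc50, and of Sema6d against Sema4c, thus depends on the length used.

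Of 43 signalling partners of these receptors measured, 4 had no count, and of the 39 with a count 31 were above 1 CPM, 5 were below and 3 had no call, a share above that is near the 74.3% of all genes tested. The 4 with the highest CPM were Cfl1, cofilin, which severs actin filaments, at 1165 ± 46.7 CPM, and the small GTPases Rac1 at 293 ± 9.95 CPM, Rhoa at 291 ± 8.96 CPM and Cdc42 at 254 ± 4.66 CPM. Srgap3, a Slit and Robo GTPase-activating protein, Ngef (ephexin), Vav3 and Enah had no count. Dpysl3, Crmp1, Mical2, Fes and Pak1 were below 1 CPM.

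Of 33 other ligands and co-receptors measured, 5 had no count, and of the 28 with a count 20 were above 1 CPM, 7 were below and Flrt3 had no call, again near the 74.3% of all genes tested. The 4 with the highest CPM were Dag1, dystroglycan, a Slit-binding protein, at 609 ± 8.03 CPM, the integrin subunit Itgb1 at 319 ± 2.50 CPM, the proteoglycan Gpc1 at 308 ± 12.4 CPM and the adhesion molecule Nrcam at 272 ± 1.95 CPM. Of the ligands that share neuropilins, Vegfa stood at 77.0 ± 2.55 CPM, Vegfb at 164 ± 1.72 CPM and Vegfc at 32.4 ± 2.68 CPM, and Pgf and Vegfd, with 3 and 8 reads in all, were below 1 CPM, while their receptors Kdr and Flt4 had no count and Flt1 had 1 read. Of the ligands of neogenin, Rgma stood at 38.3 ± 4.12 CPM and Rgmb at 22.5 ± 0.943 CPM. Flrt2, Dscam and Cntn2 also had no count.

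For polysialic acid, the carriers were transcribed with Nrp2 and the polysialyltransferases were not above 1 CPM. Ncam1, the main carrier in the nervous system, had 67.1, 59.1 and 56.5 CPM, and Cadm1, a synaptic adhesion molecule that can carry it, had 13.5, 13.9 and 13.5 CPM. Cmas, which activates sialic acid, stood at 71.5 ± 3.06 CPM, and Slc35a1, which carries it into the Golgi, at 34.7 ± 2.30 CPM. St8sia4, the polysialyltransferase that modifies Nrp2, had 8, 1 and 5 reads and no call (edgeR adjusted p = 0.0872), St8sia2 had 1 read and was below 1 CPM, and St8sia3 had no count.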

How the data were processed

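The authors deposited unnormalized, unpooled estimated counts for each gene symbol in the 3 Mock samples. They name GRCm38.p6 as genome build, per the submitters' processing notes. Aligner, counter, annotation and strand setting were not given in the sources used here, so genes with overlapping exons can share reads. Exons of 18 guidance genes overlap another annotated gene, among them Plxna1 (970 bases with Gm26811) and Ntng2 (558 bases with 6530402F18Rik). For 5 of the 18 the other gene is in the table (Epha1 with Zyx, Ephb4 with Zan, Ntn3 with Tbc1d24, Ntn5 with Sec1, Unc5a with Hk3). Counts of 70 of the 71 guidance genes were whole within 0.005, and at most 0.235% of the 31-base words of one were found in another. Words shared with other annotated genes reached 20.5% in Ntn5, 11.7% in Ntng2, 10.5% in Efna3 and 8.80% in Efna4. The share was 8.57% in Plxna1, 8.41% in Epha1 and 6.45% in Sema4c. The levels of these genes are uncertain, and by how much was not tested.

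Counts were rounded and scaled by TMM factors of 1.0034, 0.9977 and 0.9989. At 9328096 to 9456527 reads per library, genes near 1 CPM rest on few reads. Of the table's rows, 14408 had a count and were tested. Levels were tested against 1 CPM, two-sided, in edgeR 4.0.16 (R 4.3.3) by its quasi-likelihood F statistic from a fit with an intercept alone, with Benjamini-Hochberg adjustment over all these genes. Variation between libraries was tested by the Poisson deviance against chi-square with 2 degrees of freedom, at means of at least 10 counts. Both were tested on simulated data. For the variation test these held counting error only, besides genes changed in 1 library, while the real libraries differed by more (chi-square per gene 1.62 to 1.99). That simulation thus cannot show how often the variation test calls genes at the real spread. Exon lengths (merged exons) and positions are from GENCODE M21, and promoters from RefSeq on GRCm38.p6. DESeq2 1.42.0, other scalings, levels, filters and lengths, and leaving out each library were tried as alternatives. Plots used matplotlib 3.10.9.

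The genes and lists were chosen with earlier results of these data known. In each family the 2 genes with the highest mean CPM are given by library, and genes with no call or no count are named. In other lists the 4 highest and those with no count are named, and a few further genes were chosen after seeing their values. Dpysl4, Timd2, Ror2, Rbfox3 and Ptprc were not analysed here. Some marker genes are not reported here.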

Additional observations from a re-analysis of the deposited data

How the results depend on the processing

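The count of guidance genes above 1 CPM was 37 and ranged from 30 (1 RPKM as the level) to 40 (0.5 CPM), and from 35 to 37 with a library left out. Of all genes tested, 68.9% were above 1 RPKM and 77.2% above 0.5 CPM, against 74.3% above 1 CPM. With a library left out, 75.6% to 76% of all genes tested were above 1 CPM. The count below 1 CPM was 17, where 19.7% of all genes tested were below. It fell to 1 when genes with fewer than 10 counts were left out of the test (3.28% of all genes tested). It was 8 by DESeq2's Wald test (10.1%), and ranged from 10 without replicate 1 (12.9%) to 15 without replicate 2 (15.1%) with a library left out. It was 13 against 0.5 CPM, 21 against 2 CPM and 25 against 1 RPKM, levels at which 14%, 24.6% and 27.5% of all genes tested were below. The count varying between libraries was 1, and 0 to 1 with a library left out. Of 625 gene-level alternatives, 571 kept direction and call and 20 changed sign. Among those that kept the sign, 24 lost a call and 10 gained one. Some of the sign changes also lost, gained or turned a call. Epha7, Plxna2 and Plxnb3, called above 1 CPM, were called below 1 RPKM (edgeR adjusted p = 7.38e-06, 8.53e-05 and 2.73e-05). Against 0.5 CPM the log2 level was 0.57 for Dcc, 0.71 for Sema3c and 0.83 for Sema6c. Against 2 CPM it was -0.23 for Efna1, -0.091 for Efna3, -0.23 for Plxnb3, -0.86 for Sema3g and -0.43 for Sema5a. Against 1 RPKM it was -0.11 for Efna1, -0.37 for Efna3, -1.93 for Epha7, -0.73 for Plxna2, -0.029 for Plxna3, -1.93 for Plxnb3, -0.10 for Plxnc1, -2.05 for Sema3g and -3.65 for Sema5a. With a library left out it ranged from -0.92 to 0.019 for Sema3c, from -0.15 to 0.41 for Sema3g and from -0.32 to 0.018 for Sema6c. Without replicate 1 and without replicate 3 Plxnb3 lost its call (edgeR adjusted p = 0.0692 and 0.093), and the exact Poisson test called Sema5a above 1 CPM (0.0191). With the longest transcript as length, shares were 36.02% for Sema4c, 59.15% for Sema6d, 92.07% for Nrp2, 96.59% for Plxna1, 93.3% for Plxnb2 and 45.01% for Unc5b. Without division by length they were 34.82% for Sema4c, 61.36% for Sema6d, 95.54% for Nrp2, 96.66% for Plxna1, 91.33% for Plxnb2, 95.64% for Plxnd1, 85.77% for Efna5, 51.65% for Epha2, 57.56% for Ephb6 and 33.27% for Unc5b. The promoter window of highest CpG ratio, an alternative chosen after seeing the data, gave medians of 0.704 and 0.685 for guidance genes above 1 CPM and for those below or with no count. No paired analysis was possible because the samples form 1 group.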

Other observations

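Several guidance genes are neighbours in the genome, and their levels can be set side by side. Sema3b and Sema3f lie 72.3 kb apart on chromosome 9, and stood at 24.4 ± 2.0 and 1.54 ± 0.352 RPKM (mean ± SD, n = 3). Sema3d, Sema3a and Sema3e follow each other on chromosome 5 with gaps of 536 and 423 kb, and had 4, 1 and 2 reads in all. Robo1 and Robo2 lie 846 kb apart on chromosome 16, and had 44.4 ± 2.21 CPM and no count. Robo4 and Robo3, with 0.554 kb between them on chromosome 9 and opposite strands, had 1 and 5 reads in all. Efna1, Efna3 and Efna4 lie close together on chromosome 3, with gaps of 32.8 and 10.4 kb, and stood at 0.930 ± 0.294, 0.772 ± 0.0670 and 3.83 ± 0.525 RPKM. Plxnb3 and Plxna3, 557 kb apart on chromosome X, stood at 0.262 ± 0.0491 and 0.980 ± 0.0503 RPKM.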
